A study of Mus musculus with 9 samples.

Results

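Genes of cell-to-cell junctions were followed in the central cornea of mice: the connexin genes Gja1, Gjb2, Gjb5 and Gjb6, the claudin genes Cldn1, Cldn4 and Cldn7, the occludin gene Ocln, and Tjp1, which encodes the scaffold protein ZO-1. These were 9 of the 18193 genes that had a probe set with 1 symbol in the platform annotation. Where a gene had several such probe sets, the one with the highest mean stood for it and the others served as a check. The 9 genes had 18 probe sets, of which 15 passed a filter on dim probe sets, and the probe set that stood for the gene passed for 9 of 9.

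The arrays were hybridised with RNA from 3 inbred strains, SJL/J (SJL), C57BLKS/J (KS) and C57Bl/6J (B6), with 3 arrays each. The labels describe the cornea of SJL as thick and that of KS as thin and give no thickness for B6, so strain and thickness cannot be told apart. All mice were adult males 4 months old, and the labels name no engineered allele and no treatment. Each array held 1 mouse, whose 2 corneas were punched at the centre with a 2-mm punch and pooled, so epithelium, stroma and endothelium were measured together.

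Connexins assemble into channels that join the cytoplasm of neighbouring cells, and ions and small molecules pass through these gap junctions. Claudins and occludin are membrane proteins that seal the space between epithelial cells at the tight junction, and ZO proteins tie them to actin. In the cornea, tight junctions of the outermost epithelial cells form the barrier to the tear film, while gap junctions couple basal epithelial cells, keratocytes and endothelial cells. In humans, mutations of GJB2 and GJB6, which encode the connexins Cx26 and Cx30, cause hearing loss and skin disease.

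The promoters of Gjb2, Gjb6 and Cldn4 are shown because these genes had the largest differences called among the connexin and claudin genes of the 9. Each window of 300 bases ran from 250 bases before to 50 after the start of the gene in RefSeq, on the assembly GRCm38.p6. The windows lay at chr14:57104653-57104952 for Gjb2, chr14:57133562-57133861 for Gjb6 and chr5:134946885-134947184 for Cldn4, all on the minus strand, and are printed 5′ to 3′ in the direction of the gene. Capitals mark the GC box GGGCGG, the Snail/Zeb E-box CAGGTG and the AP-1 motif TGANTCA on either strand.
Gjb2 promoter: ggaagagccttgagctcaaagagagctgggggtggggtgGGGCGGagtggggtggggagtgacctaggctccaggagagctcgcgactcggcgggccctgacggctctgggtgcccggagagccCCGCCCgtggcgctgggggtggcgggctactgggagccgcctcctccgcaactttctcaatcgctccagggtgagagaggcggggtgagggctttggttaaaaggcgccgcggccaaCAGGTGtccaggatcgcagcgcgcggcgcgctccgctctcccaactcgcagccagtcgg
Gjb6 promoter: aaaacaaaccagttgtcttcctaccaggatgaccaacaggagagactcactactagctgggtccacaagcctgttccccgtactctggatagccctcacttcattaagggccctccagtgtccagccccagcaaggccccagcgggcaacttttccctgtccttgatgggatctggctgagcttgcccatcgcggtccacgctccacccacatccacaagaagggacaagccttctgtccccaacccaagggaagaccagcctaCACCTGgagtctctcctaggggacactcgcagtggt
Cldn4 promoter: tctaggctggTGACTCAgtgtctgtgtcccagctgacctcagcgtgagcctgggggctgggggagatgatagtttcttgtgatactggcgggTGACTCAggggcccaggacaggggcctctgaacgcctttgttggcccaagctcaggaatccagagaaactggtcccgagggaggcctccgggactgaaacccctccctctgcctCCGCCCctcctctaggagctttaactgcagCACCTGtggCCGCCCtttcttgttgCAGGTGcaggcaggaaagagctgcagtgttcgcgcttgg

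The Gjb2 window held 2 GC boxes, at -211 and -126 from the start, and 1 E-box at -9, and 70% of its bases were G or C. The Gjb6 window held 0 GC boxes and 1 E-box at 14, with 57.3% G or C. The Cldn4 window held 2 GC boxes at -44 and -5, 2 E-boxes at -14 and 11, and 2 AP-1 motifs at -240 and -158, with 61.0% G or C. No motif overlapped another within these windows. Over all 32851 RefSeq promoters of the same length, 35.7% held a GC box, 20.2% the E-box and 7.81% the AP-1 motif, and the median share of G and C was 52.7%. The assembly is that of C57BL/6J, and sequences of SJL and KS were not used here. Of the other genes, Gja1 (chromosome 10) had 1 AP-1 motif at -19 and 47.7% G or C. Gjb5 (chromosome 4) had 54.3% G or C and, at -243, the letters TTTATA. These are the TATA box letters TATAAA read on the opposite strand to the gene. On either strand, 13.6% of promoters held TATAAA. Cldn1 (chromosome 16) had 2 GC boxes at -42 and -14, and Tjp1 (chromosome 7) had 2 at -68 and -50. Ocln (chromosome 13) and Cldn7 (chromosome 11) had 2 listed starts each. The Ocln windows held 1 GC box each and 1 and 2 E-boxes, while one Cldn7 window held 1 GC box and 2 E-boxes and the other none of the 4 motifs.

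Values below are probe set intensities on a linear scale as the authors deposited them, means are given ± SD with n = 3 arrays, and differences are log2 differences of intensity plus 10 with a 95% interval. A difference was called when its adjusted p from limma, over all 22519 probe sets tested, was below 0.05. No probe set's level is set against that of another, since probe sets differ in brightness for reasons other than transcript amount. The deposited intensities ran from 3.39 to 37501, and 54.6% lay below 16, near the lower end of the scale.

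The defining markers of the 3 layers of the cornea were bright in every strain, though other genes of their lists differed between strains. Krt12, the keratin of corneal epithelium, had mean intensities of 26600 ± 628 in SJL, 26810 ± 388 in KS and 28460 ± 777 in B6. Kera, the keratocyte proteoglycan keratocan, averaged 11790 ± 447, 11720 ± 516 and 12630 ± 527 in the same order, and Slc4a11, a transporter of corneal endothelium, 1924 ± 553, 2479 ± 228 and 2175 ± 619. None of these 3 genes was called in any contrast. Of 12 stromal genes tested, 2 were lower in SJL than in KS, Dcn (-0.37, adjusted p = 0.0168) and Aldh1a1 (-0.40, 0.0143), and Aldh1a1 was also lower in SJL than in B6 (-0.49, 0.00529). Of 9 endothelial genes tested, 2 were lower in SJL, Atp1b1 (-1.08 against KS, 0.00169, and -0.84 against B6, 0.00585) and Slc16a1 (-1.38, 9.37e-05, and -1.13, 0.000298). Of the stromal and endothelial genes tested, 0 were called higher in SJL, and 0 were called in KS against B6, where 2 and 0 had an unadjusted p under 0.05. Beside these counts, 6.80% of all genes tested were higher and 8.08% lower in SJL than in KS. The shares were 8.39% and 7.68% in SJL against B6, and 3.40% and 2.87% in KS against B6. The 14 stromal markers summed to 59030 to 62210 in SJL, 67280 to 75740 in KS and 63780 to 73370 in B6, and the 10 endothelial markers to 24520 to 30230, 33240 to 39350 and 30470 to 37050, so in both lists every SJL array lay below every other array. The stromal genes Thy1 and Chst1 and the endothelial list's Slc16a3 were below 16 on all arrays.

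One array stood apart, KS replicate 3, where 12 retina markers summed to 7707, against 56.0 to 65.1 on the other 8 arrays. For the junction genes and neighbours named below, results that involve KS are therefore also given without that array where the call differs. The calls of cell type markers, above and in this paragraph, were not repeated without it. The 16 markers of corneal epithelium summed to 206700 to 213700 in SJL, 225500 to 229400 in KS and 234800 to 237300 in B6, and none lay below 16 on all arrays. In SJL against KS, 2 of these 16 were called, Krt15 (112 ± 124 in SJL and 8079 ± 1173 in KS) and Muc4 (1956 ± 145 and 11920 ± 1378), both lower in SJL, and the other 14 were not called. The fall in the sum from KS to SJL lay mainly in these 2 genes. The median difference of the 16 was -0.02 for SJL against KS and -0.04 for SJL against B6. In SJL against B6 the same 2 were lower and Krt14 was higher (0.37, adjusted p = 0.0456). Of all genes tested, 14.9% were called in SJL against KS and 16.1% in SJL against B6. The 11 markers of conjunctiva and limbus summed to 9414 to 11420 in SJL, 18930 to 21140 in KS and 20500 to 25550 in B6, with the goblet cell genes Muc5ac, Muc5b, Tff1 and Tff3 below 16 on all arrays. Krt13, a keratin of conjunctival epithelium, had 3709 ± 553 in SJL, 12120 ± 356 in KS and 12040 ± 1039 in B6. In the contrasts with B6, calls of this list went both ways, while in SJL against KS all were lower. Among all genes tested, 6.80% were higher and 8.08% lower in SJL than in KS. The shares were 3.40% and 2.87% in KS against B6, and 8.39% and 7.68% in SJL against B6. Of the 7 genes of this list tested, 0 were higher and 4 lower in SJL than in KS, 1 was higher and 2 lower in KS than in B6, and 2 were higher and 4 lower in SJL than in B6. The 2 higher in SJL than in B6 were Krt18 (0.84, adjusted p = 0.0065) and Krt19 (0.67, 0.0192), and Krt8 had 79.9 ± 56.9 in SJL and 11.8 ± 2.78 in B6 without a call (1.88, 0.0655). Krt18 was lower in SJL than in KS (-1.01, 0.0027). Gpha2 was lower in SJL than in KS (-1.78, 0.00579) and B6 (-1.67, 0.00746), as was Ifitm3 (-0.61, 0.046, and -1.45, 0.000682). Krt4 was lower in SJL than in B6 (-2.97, 0.00169). Lens markers, 7 in number, summed to 71.4 to 203 in SJL, 49.2 to 51.8 in KS and 52.2 to 54.9 in B6. Of these, 5 (Cryaa, Cryba1, Crybb2, Bfsp2 and Mip) lay below 16 on all arrays. The higher sum in SJL came from Bfsp1 (72.6 ± 34.2 in SJL and 23.9 ± 1.73 in KS) and Cryba4 (38.9 ± 33.9 and 4.06 ± 0.0661).

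SJL differed from KS in 5 of the 9 genes. Gjb2, Cldn4 and Cldn7 were higher in SJL, and Gjb6 and Ocln were lower. The 5 called genes were 55.6% of the 9, against 14.9% of the 10956 genes tested. The median difference of the 9 genes was -0.04, beside 0.02 for all genes tested. Without KS replicate 3 the count was again 5, with Cldn1 called and Cldn7 not. For the 5 genes called with all arrays, the 3 SJL arrays lay wholly above or wholly below the 3 KS arrays, a separation seen in 35.5% of all genes tested.

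KS differed from B6 in 2 of the 9 genes, with Gjb6 higher and Gjb2 lower in KS. These 2 were 22.2% of the 9 genes, against 6.27% of all genes tested. The 3 KS arrays lay wholly above or below the 3 B6 arrays for 5 genes, adding Gja1, Cldn1 and Cldn7, beside 31.1% of all genes tested. SJL differed from B6 in 2 genes as well, with Cldn4 higher and Ocln lower in SJL, beside 16.1% called among all genes tested. The share of 22.2% in SJL against B6 was close to that of all genes. The arrays of SJL and B6 did not overlap for 4 genes, adding Cldn1 and Cldn7, beside 32.8% of all genes tested. The contrasts share arrays: the KS arrays enter SJL against KS and KS against B6, and the other strains likewise.

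**Figure D1:**
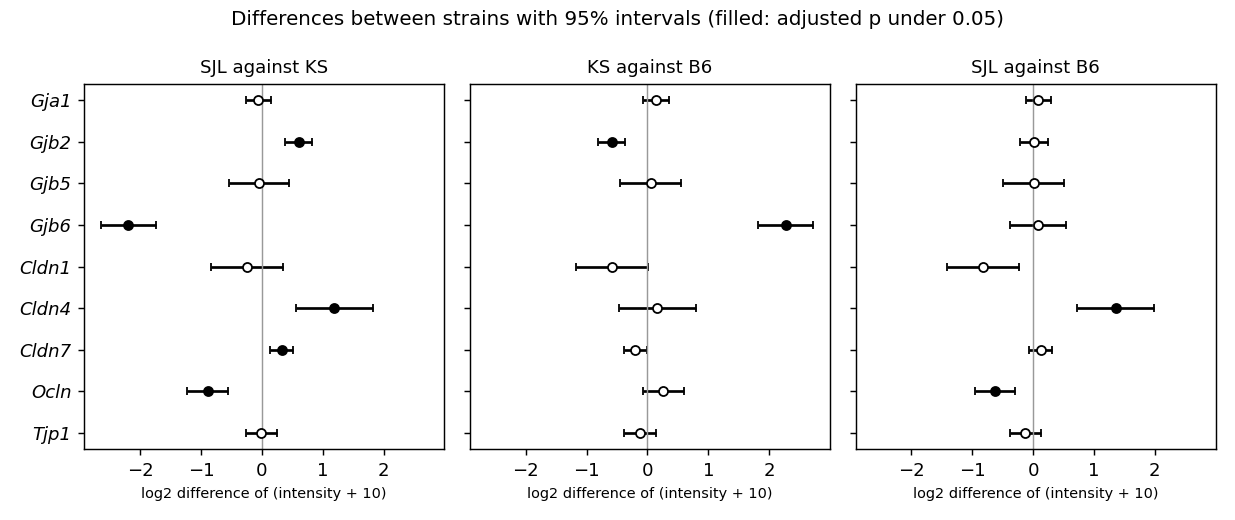
Log2 difference of (intensity + 10) for the 9 junction genes in each contrast of strains, with 95% intervals from the limma model over 9 arrays. Filled points had an adjusted p under 0.05: 5 genes in SJL against KS, and 2 genes each in KS against B6 and SJL against B6.

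Gjb2 and Gjb6, the Cx26 and Cx30 genes, differed between strains in opposite directions. Gjb2 had intensities of 7955, 6663 and 7803 in SJL, 4834, 4705 and 5163 in KS, and 7142, 7880 and 7143 in B6. All 3 KS arrays lay below all arrays of the other strains, and SJL and B6 overlapped. The mean was 7474 ± 706 in SJL and 4901 ± 236 in KS, a difference of 0.60 (SE 0.098, interval 0.38 to 0.83, adjusted p = 0.00389) or 1.52-fold. Against B6, with 7388 ± 426, KS was lower by a log2 difference of -0.59 (interval -0.81 to -0.37, adjusted p = 0.00935). SJL and B6 differed by 0.01 (interval -0.21 to 0.24, adjusted p = 0.95). In this bulk tissue, fewer cells of a type and less RNA per cell cannot be told apart, which holds for every gene described here. Sequences of SJL and KS were not used, so how well each probe set matched the transcripts of each strain was not tested. The sums of stromal, endothelial, conjunctival, lens, epithelial and retinal markers given above also differed between strains or arrays, and their part in these results was not tested.

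Gjb6 had intensities of 92.7, 106 and 94.5 in SJL, 644, 385 and 451 in KS, and 115, 76.2 and 88.0 in B6. The lowest KS array was over every array of SJL and B6, which overlapped with each other. Its mean was 97.8 ± 7.37 in SJL, 493 ± 134 in KS and 93.1 ± 19.9 in B6. SJL was lower than KS by a log2 difference of -2.19 (interval -2.65 to -1.74, adjusted p = 0.000156), and KS was higher than B6 by 2.27 (interval 1.82 to 2.73, adjusted p = 0.000236), a 4.83-fold difference. SJL and B6 differed by 0.08 (interval -0.38 to 0.54, adjusted p = 0.842). Without KS replicate 3 the difference was -2.24 for SJL against KS and 2.32 for KS against B6, both called. Each of Gjb2 and Gjb6 had 1 probe set, so neither pattern could be checked on a second one. The same held for Gjb5, Cldn4, Cldn7 and Tjp1.

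Over the 9 arrays the log2 values of Gjb2 and Gjb6 had a Pearson r of -0.958, and those of Gjb2 and Cldn7 an r of 0.886. The arrays fall into 3 strains that share their scaling, so these are descriptions of the strain pattern. Gjb2 and Gjb6 are neighbours on chromosome 14 in the RefSeq order of protein-coding genes. On the far side of Gjb2 lies Gja3, which did not pass the filter. On the far side of Gjb6 lies Cryl1, a dehydrogenase gene, with 302 ± 72.2 in SJL, 264 ± 33.8 in KS and 277 ± 50.8 in B6, and no call (adjusted p = 0.63 for SJL against KS, 0.913 for KS against B6 and 0.766 for SJL against B6). Of 10955 other genes tested, Trim25, a ubiquitin ligase gene, was most like Gjb2 (r = 0.990), with 6162 ± 499 in SJL, 4135 ± 145 in KS and 6059 ± 445 in B6, followed by Pitpnm3 (0.975) and Niban1 (0.974). Most like Gjb6 were Tmem215 (0.988), H2-Ea (0.988) and Tcea2 (0.981). H2-Ea, an MHC class II gene, had 203 ± 46.7 in KS, against 4.45 in SJL and 4.43 in B6, both at the lower end of the scale.

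Gjb5 and Gja1, the other connexin genes, were not called. Gjb5, which encodes a connexin of stratified epithelium, had 974, 1660 and 1278 in SJL, 1334, 1413 and 1203 in KS, and 982, 1545 and 1344 in B6. The strains overlapped throughout, and the intervals allowed log2 differences between -0.54 and 0.55. Gja1, the Cx43 gene, had 17649, 14957 and 16644 in SJL, 17532, 16798 and 16798 in KS, and 15926, 16031 and 14442 in B6. Its difference was -0.06 for SJL against KS (interval -0.27 to 0.15), 0.14 for KS against B6 (-0.07 to 0.35) and 0.08 for SJL against B6 (-0.12 to 0.29). Of its 6 probe sets 0 were called by limma in any contrast, and 0 had an unadjusted p under 0.05. The dimmest, with intensities of 77.5 to 249, had the widest differences, -0.39, 0.55 and 0.16 in the same 3 contrasts. Only on the brightest did the KS arrays lie wholly above those of B6. The sign of KS against B6 also differed between probe sets, with -0.06 and -0.13 among the others. Missing the threshold does not show that Gja1 or Gjb5 was alike across strains.

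**Figure D2:**
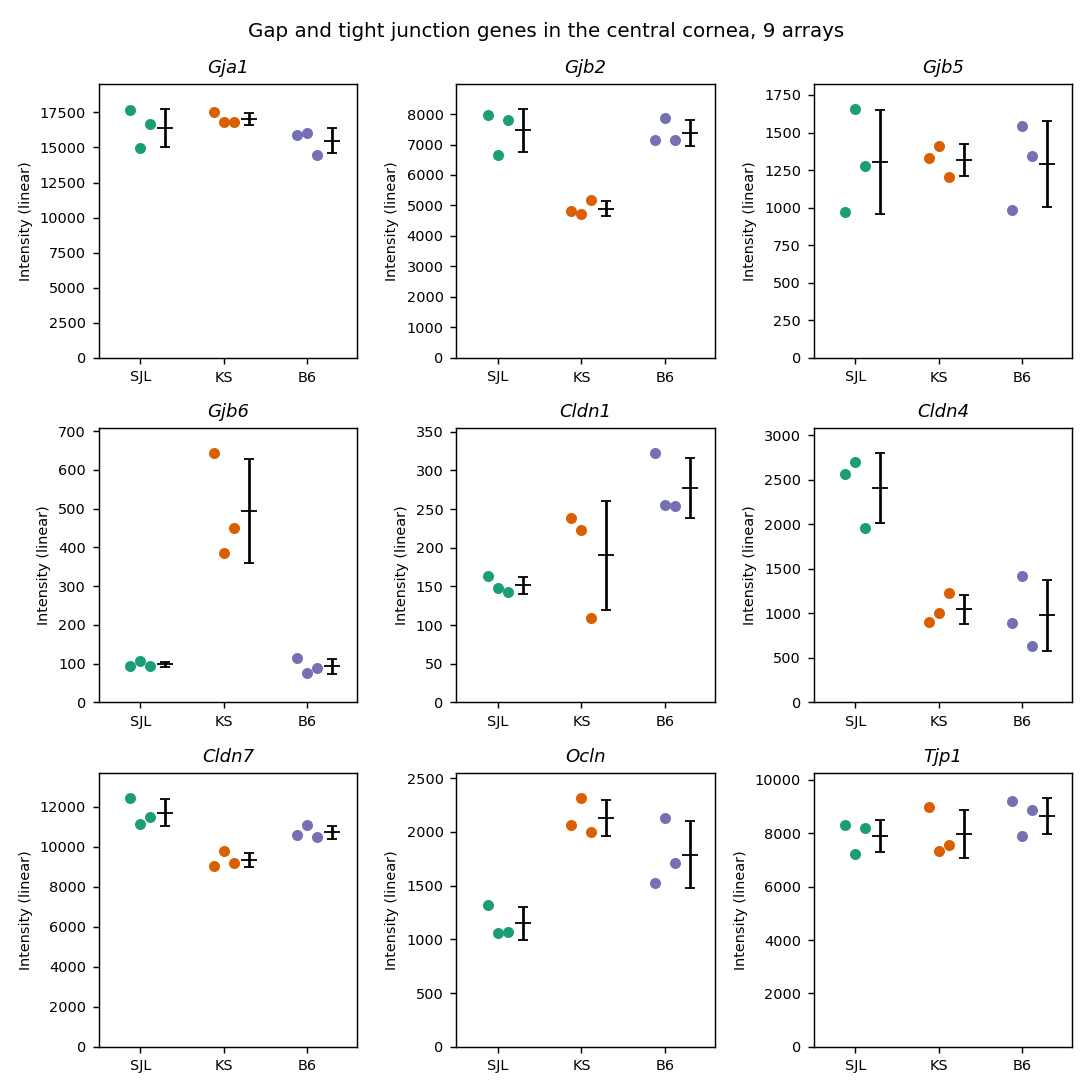
Intensity on a linear axis from 0 for the 9 genes in SJL, KS and B6; each point is 1 array, and the bar beside the points is the mean ± SD (n = 3). Gjb6 was high on all 3 KS arrays and Gjb2 low on them, Cldn4 was high in SJL, and Ocln was low in SJL.

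Cldn4, a claudin of tight epithelia, was highest in SJL. Its intensities were 2562, 2699 and 1962 in SJL, 908, 1002 and 1228 in KS, and 890, 1417 and 629 in B6. The 3 SJL arrays lay above the 6 arrays of the other strains, which overlapped with each other. SJL averaged 2408 ± 392 and B6 978 ± 401, a log2 difference of 1.36 (interval 0.73 to 1.98, adjusted p = 0.0111) or 2.56-fold. KS averaged 1046 ± 164, and SJL exceeded it by 1.19 (interval 0.56 to 1.82, adjusted p = 0.0203), while KS and B6 differed by 0.16 (interval -0.47 to 0.79, adjusted p = 0.803). The call against KS was lost without SJL replicate 1, SJL replicate 2, KS replicate 1 or KS replicate 2 (adjusted p = 0.0533 to 0.0722). It was also lost when dim probe sets were kept (0.0855). The call against B6 was kept in 9 of 9 leave-outs and lost when dim probe sets were kept (0.0547).

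Next to Cldn4 on chromosome 5 lie Cldn3, another claudin gene, and Mettl27, a methyltransferase-like gene. Cldn3 had 729 ± 110 in SJL, 846 ± 111 in KS and 632 ± 103 in B6 and was called in none of the 3 contrasts (adjusted p = 0.434, 0.203 and 0.452). Mettl27 had 791 ± 23.3 in SJL, 678 ± 31.3 in KS and 474 ± 52.8 in B6, and it was higher in SJL than in B6 by 0.73 (adjusted p = 0.00142). Mettl27 was also higher in KS than in B6, by 0.51 (adjusted p = 0.0197), a call lost without any 1 of the 3 KS arrays (0.0588 to 0.0703). Most like Cldn4 over the 9 arrays were BC064078 (r = 0.980), Rtn4rl1 (0.977) and Tmem116 (0.972).

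Cldn7, a claudin of epithelial cell sides, was higher in SJL than in KS by a small amount. It had 12454, 11154 and 11465 in SJL, 9054, 9760 and 9193 in KS, and 10605, 11083 and 10460 in B6. The KS arrays lay below all others, and every SJL array was above every B6 array. The log2 difference of SJL and KS was 0.32 (interval 0.14 to 0.51, adjusted p = 0.0291), or 1.25-fold, with means of 11691 ± 679 and 9335 ± 374. It was not called without KS replicate 1, 2 or 3, SJL replicate 1 or SJL replicate 3 (0.0565 to 0.0963), and with the replicate number as a block the adjusted p was 0.0559. KS and B6 differed by -0.20 (interval -0.38 to -0.01, adjusted p = 0.228), with a B6 mean of 10716 ± 326, and SJL and B6 by 0.12 (interval -0.06 to 0.31, adjusted p = 0.357). Beside Cldn7 on chromosome 11, Elp5, an elongator subunit gene, was lower in SJL than in KS (1124 ± 162 and 1540 ± 13.1, -0.46, adjusted p = 0.0197), the opposite direction from Cldn7. That call was lost without any 1 KS array or SJL replicate 3 (0.0567 to 0.0743) and in the 6-array fit (0.051). Slc2a4, a glucose transporter gene on the other side, was dim (10.8 ± 2.27 in SJL, 8.26 ± 1.04 in KS and 9.77 ± 0.458 in B6) and was not called. Most like Cldn7 over the 9 arrays were D930048N14Rik (r = 0.974), the kinase gene Sik1 (0.955) and Prom1 (0.953).

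Cldn1, the claudin whose loss in mice breaks the water barrier of the skin, was not called in the model with 1 mean per strain and all 9 arrays. It had 163, 148 and 142.5 in SJL, 239, 223 and 109 in KS, and 322, 255 and 255 in B6. All SJL arrays lay below all B6 arrays, and KS replicate 3 was lower than every other array of the gene. SJL and B6 differed by -0.83 (interval -1.42 to -0.23, adjusted p = 0.0659), with means of 151 ± 10.8 and 277 ± 39.1. KS, with 190 ± 70.9, gave -0.24 for SJL against KS (interval -0.83 to 0.35, adjusted p = 0.597) and -0.59 for KS against B6 (interval -1.18 to 0.01, adjusted p = 0.265). Without KS replicate 3, the array with retina markers, SJL was below KS by -0.58 (adjusted p = 0.0333) and the difference of SJL and B6, still -0.83, was called (adjusted p = 0.00402). The difference of SJL and B6 was also called in a fit of those 6 arrays alone (0.0111) and with the replicate number as a block (0.0462). The other 3 probe sets of Cldn1 lay between 4.36 and 4.73, at the lower end of the scale, and were not tested. Of its neighbours on chromosome 16, Cldn16, another claudin gene, did not pass the filter, and P3h2, a collagen prolyl hydroxylase gene, had 3113 ± 229 in SJL, 4167 ± 205 in KS and 3563 ± 677 in B6 and was not called (adjusted p = 0.0852 for SJL against KS, 0.396 for KS against B6 and 0.457 for SJL against B6).

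Ocln, the occludin gene, was lowest in SJL. It had 1323, 1059 and 1065 in SJL, 2064, 2319 and 1999 in KS, and 1524, 2127 and 1712 in B6. Every SJL array was below every array of KS and B6, which overlapped with each other. SJL averaged 1149 ± 151 and KS 2127 ± 169, a log2 difference of -0.89 (interval -1.22 to -0.55, adjusted p = 0.00414). Against B6, with 1788 ± 309, SJL was lower by -0.63 (interval -0.96 to -0.29, adjusted p = 0.0208), and KS and B6 differed by 0.26 (interval -0.07 to 0.59, adjusted p = 0.377). The difference from B6 was not called without SJL replicate 2, SJL replicate 3 or B6 replicate 2 (0.0549 to 0.0766), nor in a fit of those 6 arrays alone (0.0632).

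A second Ocln probe set had 1176, 1154 and 1073 in SJL, 1353, 1079 and 1358 in KS, and 1256, 1595 and 1354 in B6. It was not called, with differences of -0.15 for SJL against KS (adjusted p = 0.496), -0.15 for KS against B6 (0.568) and -0.30 for SJL against B6 (0.159). The probe sets therefore agreed in the sign of SJL against KS and SJL against B6 but not in its size, and they disagreed in the sign of KS against B6. With the mean of both, the difference was smaller, -0.52 for SJL against KS (adjusted p = 0.013) and -0.46 for SJL against B6 (0.0204), and both were called. Marveld2, which encodes tricellulin, the relative of occludin at corners where 3 cells meet, lies next to Ocln on chromosome 13. It too was lower in SJL, with 1010 ± 38.6, than in KS (1349 ± 88.6, -0.41, adjusted p = 0.0124) and B6 (1284 ± 59.8, -0.34, adjusted p = 0.0274). The first call was lost without SJL replicate 3 (0.0513), and the second without that array, KS replicate 3, B6 replicate 1 or B6 replicate 3 (0.0506 to 0.0966) and in the 6-array fit (0.0637). Most like Ocln over the 9 arrays were Mettl21a (r = 0.970), Prrc1 (0.962) and Mcur1 (0.956).

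**Figure D3:**
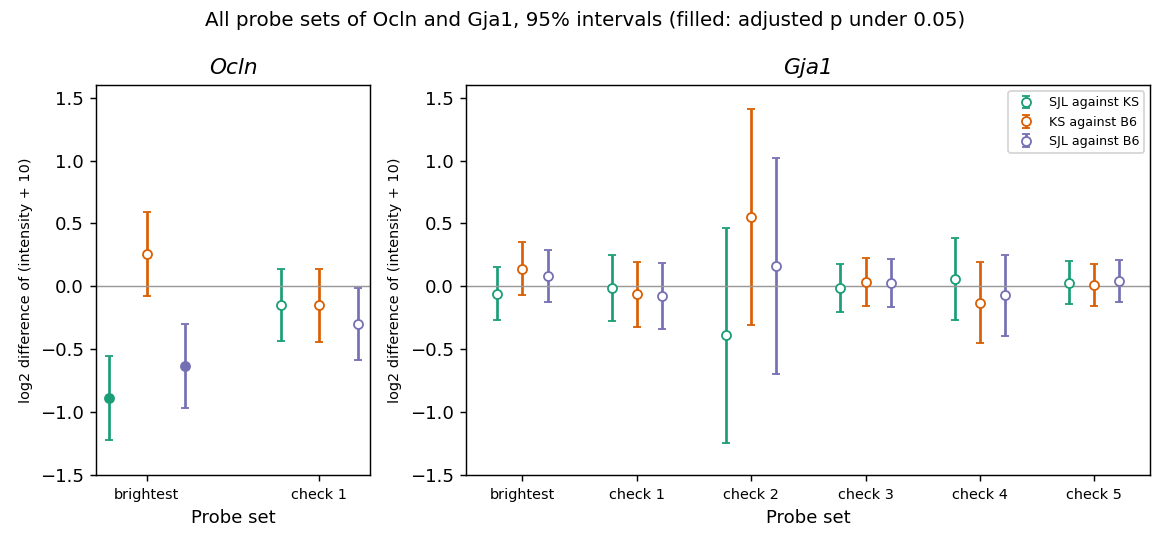
Log2 difference of (intensity + 10) with 95% intervals for each probe set of Ocln and Gja1, which had 2 and 6, in the 3 contrasts. The brightest Ocln probe set was called in SJL against KS and SJL against B6 (filled points) and its second was not, while 0 of the Gja1 probe sets were called.

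Tjp1, the ZO-1 scaffold gene, had 8302, 7218 and 8210 in SJL, 9000, 7354 and 7557 in KS, and 9202, 7906 and 8883 in B6. The 3 strains overlapped. Its differences were -0.01 for SJL against KS (interval -0.27 to 0.25), -0.12 for KS against B6 (-0.38 to 0.13) and -0.13 for SJL against B6 (-0.39 to 0.13), with adjusted p-values of 0.976, 0.604 and 0.496. Its neighbours on chromosome 7, Nsmce3 and Tarsl2, were not called in any contrast, with the lowest adjusted p at 0.146, for Tarsl2 in SJL against B6 (194 ± 31.1 and 151 ± 22.5). Msl3l2, beside Gja1 on chromosome 10, was not called either, with 67.8 ± 13.1 in SJL, 40.8 ± 10.5 in KS and 64.9 ± 16.5 in B6 and its lowest adjusted p at 0.0937, for SJL against KS. Of the 10 tested neighbours outside the 9 genes, the contrast of SJL with KS called 2, that of KS with B6 called 1 and that of SJL with B6 called 2. These counts are near the shares of all genes tested, 14.9%, 6.27% and 16.1%.

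The rest of the junction was described with 5 further lists. Among 12 other connexin and pannexin genes with a probe set, 11 lay below 16 on all 9 arrays, and the 1 tested, Panx1, a channel gene related to connexins, was not called (341 ± 107 in SJL, 251 ± 3.72 in KS and 309 ± 26.8 in B6). It was called in SJL against KS only without SJL replicate 1 (0.66, adjusted p = 0.00578). Of 17 other claudin genes, 11 lay below 16 on all arrays and 6 were tested. Of these 6, 0 were higher and 1 was lower in SJL than in KS, 0 were called in KS against B6 (1 at an unadjusted p under 0.05), and 0 were higher and 1 was lower in SJL than in B6. Among all genes tested, 6.80% were higher and 8.08% lower in SJL than in KS, 3.40% and 2.87% in KS against B6, and 8.39% and 7.68% in SJL against B6. The called claudin was Cldn8, of distal nephron and other tight epithelia, with 54.5 ± 7.81 in SJL, 148 ± 75.4 in KS (-1.20, adjusted p = 0.0236) and 145 ± 23.4 in B6 (-1.26, adjusted p = 0.0192). The first call was lost without SJL replicate 2 or SJL replicate 3 (0.0716 and 0.0725), and the second without either of these or B6 replicate 1 or B6 replicate 3 (0.0577 to 0.0622). With dim probe sets kept neither was called (0.0972 and 0.0819), nor was the first in a fit of the 6 arrays compared (0.0579). Cldn10 and Cldn23, not called in KS against B6, had adjusted p-values of 0.69 and 0.83 there. The median difference of the 6 was -0.17 for SJL against KS, 0.06 for KS against B6 and -0.06 for SJL against B6.

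Of 32 tight junction scaffold and polarity genes tested, 0 were higher and 3 lower in SJL than in KS, 0 were called in KS against B6 (5 at an unadjusted p under 0.05), and 3 were higher and 2 lower in SJL than in B6. The medians were -0.04, 0.04 and -0.05 in these contrasts, beside 0.02, 0.01 and 0.02 for all genes. The shares of all genes called in these contrasts were 14.9%, 6.27% and 16.1%, and the counts of this list lay below them. Besides Marveld2, the multi-PDZ scaffold gene Mpdz was lower in SJL (317 ± 49.5) than in KS (575 ± 85.0, -0.84, adjusted p = 0.0246) and B6 (639 ± 154, -0.97, adjusted p = 0.0129), and Jam2, an adhesion molecule gene, was lower in SJL (236 ± 40.0) than in KS (385 ± 60.6, -0.68, adjusted p = 0.0365). The polarity scaffold gene Patj was higher in SJL (1211 ± 226) than in B6 (745 ± 118, 0.69, adjusted p = 0.0174), as were Pard3b (64.4 ± 18.4 and 35.5 ± 4.36, 0.69, 0.0342) and Marveld3, an occludin relative (778 ± 38.2 and 593 ± 37.0, 0.39, 0.0283). A second Marveld3 probe set gave 0.05 (0.717), and 2 of 3 other Patj probe sets were of the opposite sign. In KS against B6, Ybx3 and Prkci were not called, with adjusted p-values of 0.338 and 0.89.

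Of these scaffold calls, Mpdz in SJL against B6 was kept in 9 of 9 leave-outs (adjusted p up to 0.0487), but was not called with dim probe sets kept (0.0554) or with the mean of its 4 probe sets, 3 of them under the filter, where it was -0.24 (0.0535). Mpdz in SJL against KS was lost without any 1 KS array, SJL replicate 2 or SJL replicate 3 (0.052 to 0.0857), with dim probe sets kept (0.0907) and with the mean of its probe sets (-0.24, 0.0602). Jam2 was lost without B6 replicate 1, any 1 KS array, SJL replicate 2 or SJL replicate 3 (0.0518 to 0.127), with dim probe sets kept (0.116), with the replicate block (0.0695) and with the mean of its probe sets (-0.21, 0.0641). The one other Jam2 probe set tested gave -0.32 (0.312). Patj was lost without B6 replicate 1 or B6 replicate 3 (0.0532 and 0.0602), with dim probe sets kept (0.0578), in the 6-array fit (0.0618) and with the mean of its probe sets (0.29, 0.116). Pard3b was lost without any 1 B6 array, SJL replicate 1, SJL replicate 3, KS replicate 1 or KS replicate 2 (0.0529 to 0.105), and also with dim probe sets kept, a pseudocount of 50, the replicate block or the 6-array fit (up to 0.107). Marveld3 was lost without SJL replicate 2, SJL replicate 3, KS replicate 3, B6 replicate 1 or B6 replicate 2 (0.0521 to 0.0879), with the replicate block (0.0506), in the 6-array fit (0.0554) and with the mean of its probe sets (0.15, 0.135).

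Of 23 adherens junction and desmosome genes tested, 1 was higher and 1 lower in SJL than in KS, 1 was higher and 0 were lower in KS than in B6, and 0 were higher and 1 was lower in SJL than in B6. The counts of this list lay below the shares of all genes called, 14.9%, 6.27% and 16.1% in the same order. Dsg2, a desmosomal cadherin gene, was highest in KS, with 2524 ± 184 in SJL, 3587 ± 538 in KS and 2170 ± 170 in B6. Its difference was 0.72 for KS against B6 (adjusted p = 0.0118), which held in 9 of 9 leave-outs (adjusted p up to 0.0429), and 5 of 5 other probe sets were also higher, 3 of them called. SJL was below KS by -0.50 (adjusted p = 0.0285), a call lost without KS replicate 1, KS replicate 3 or any 1 SJL array (0.0507 to 0.0774), with dim probe sets kept (0.0683) and in the 6-array fit (0.055). In SJL against KS, 4 of 5 other probe sets were also lower in SJL, 2 of them called, and the remaining probe set was slightly higher. With the mean of its probe sets Dsg2 gave -0.92 for SJL against KS and 1.12 for KS against B6, both called. In both contrasts a single probe set differed far more than the others and pulled this mean away from 0. The mean is therefore not a typical size for the probe sets of Dsg2. Nectin2, an adhesion molecule gene, was higher in SJL than in KS (656 ± 84.7 and 402 ± 17.5, 0.69, adjusted p = 0.0375), but its second probe set gave 0.03 (0.954), and the call was lost without B6 replicate 2 or any 1 array of KS or SJL (0.0531 to 0.119), with dim probe sets kept (0.119), with the replicate block (0.0627) and with the mean of both probe sets (0.36, 0.223). Pkp2, a desmosomal plaque gene, was lower in SJL than in B6 (54.4 ± 19.3 and 143 ± 46.3, -1.25, adjusted p = 0.0245), a call lost without B6 replicate 1, B6 replicate 3, SJL replicate 1 or SJL replicate 3 (0.0644 to 0.0883), with dim probe sets kept (0.0989) and with the replicate block (0.0562). With the mean of its probe sets the difference was -0.63 (0.0242).

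Of 24 proteases and regulators that act on claudins or on epithelial junction genes, 1 was higher and 1 lower in SJL than in KS, 0 were called in KS against B6 (2 at an unadjusted p under 0.05), and 0 were higher and 1 was lower in SJL than in B6. These counts too lay below the shares of all genes called, 14.9%, 6.27% and 16.1% in the same order. Src, a tyrosine kinase gene, was higher in SJL than in KS (467 ± 42.0 and 305 ± 43.6, 0.60, adjusted p = 0.033), and its second probe set gave 1.25 (0.00275). Zeb1, a repressor of epithelial junction genes that binds E-boxes, was lower in SJL than in KS (712 ± 74.7 and 1130 ± 270, -0.64, adjusted p = 0.0305). Grhl3, an activator of epithelial barrier genes, was lower in SJL than in B6 (1127 ± 150 and 1641 ± 270, -0.53, adjusted p = 0.0477). The Src call was lost without B6 replicate 1, KS replicate 1, KS replicate 2 or any 1 SJL array (0.053 to 0.11) and with dim probe sets kept (0.0976). With the mean of both probe sets Src gave 0.93 (0.00324). The Zeb1 call was lost without SJL replicate 2, SJL replicate 3, KS replicate 2 or KS replicate 3 (0.0602 to 0.104), with dim probe sets kept (0.0946), with the replicate block (0.0578), in the 6-array fit (0.074) and with the mean of its probe sets, which gave -0.17 (0.119). The Grhl3 call was lost without B6 replicate 2, B6 replicate 3, any 1 KS array, SJL replicate 1 or SJL replicate 3 (0.0642 to 0.128), and with dim probe sets kept, a pseudocount of 1 or the 6-array fit (up to 0.127). Klf4 and Trp63, not called in KS against B6, had adjusted p-values of 0.528 and 0.725 there. The medians of this list were 0.00, -0.10 and -0.13 for SJL against KS, for KS against B6 and for SJL against B6, and those of the adherens junction and desmosome list -0.01, -0.10 and -0.09.

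**Figure D4:**
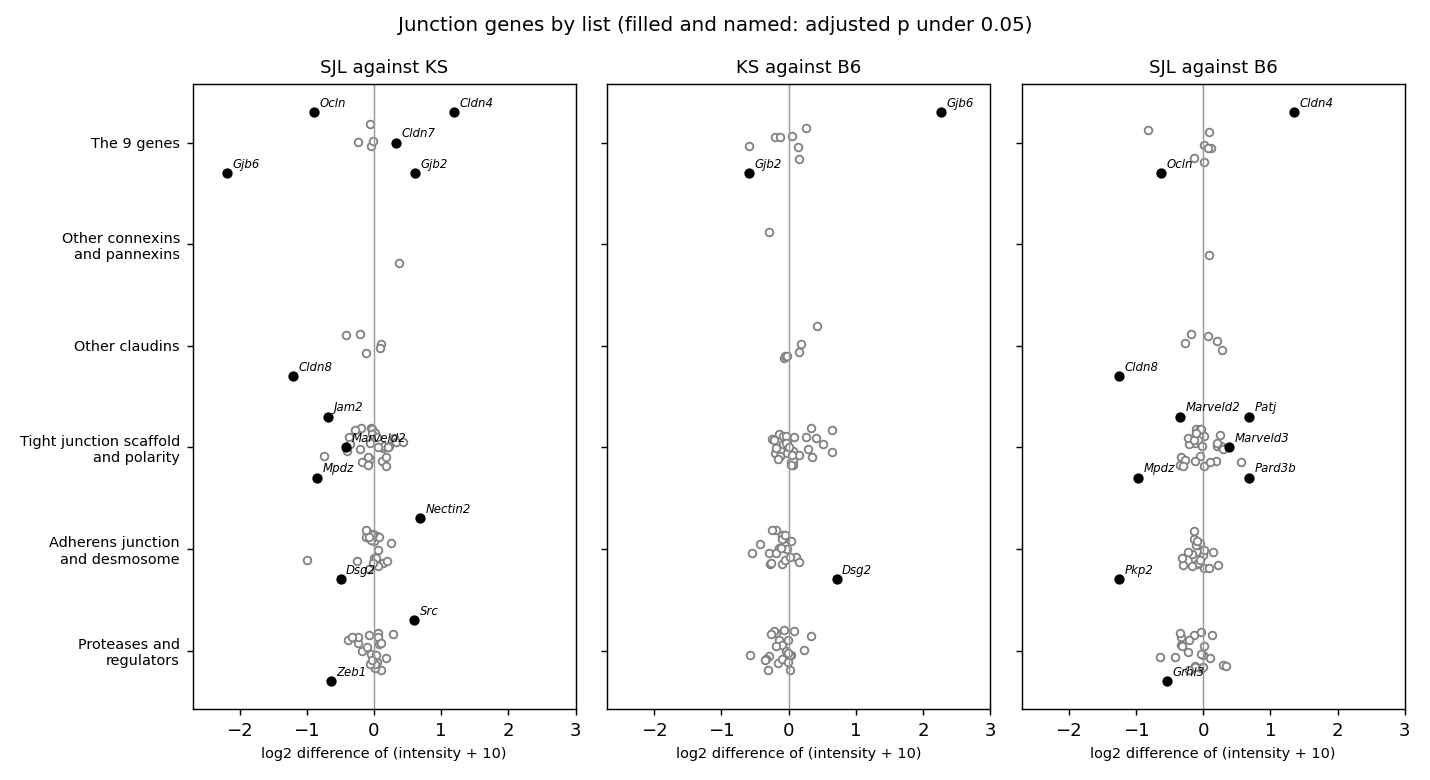
Log2 difference of (intensity + 10) of each tested gene of 6 lists in the 3 contrasts; points are genes, spread at random or set apart within a list for legibility, and filled points with names had an adjusted p under 0.05. Gjb6 was lowest of all plotted genes in SJL against KS and highest in KS against B6, and Cldn4 was highest in SJL against KS and SJL against B6.

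**Figure D5:**
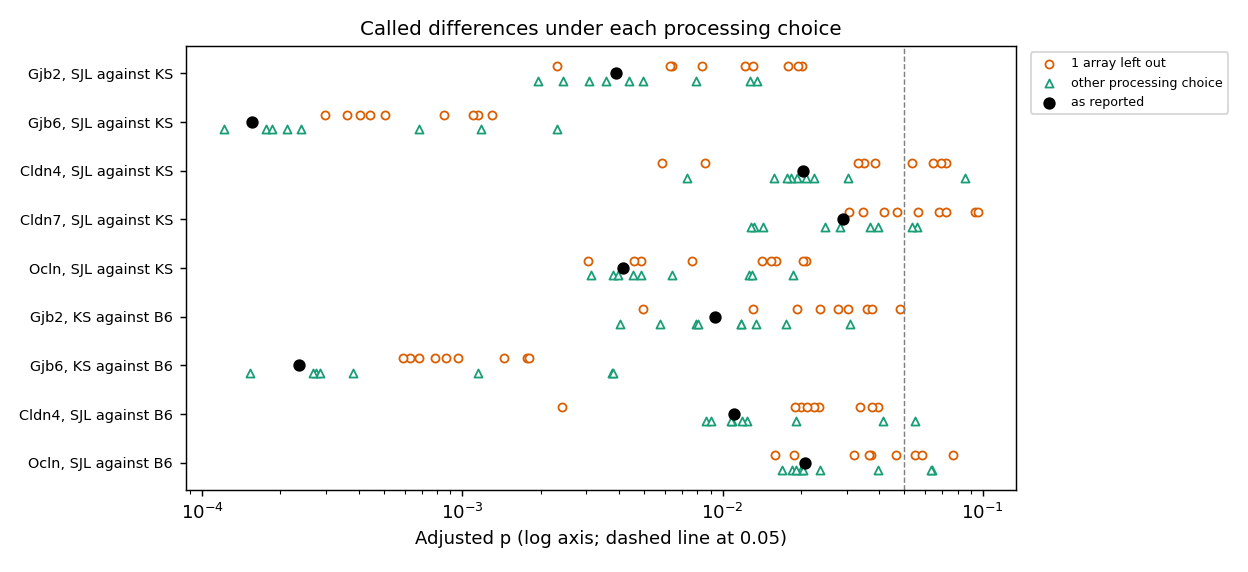
Adjusted p of the 9 differences called among the 9 junction genes, on a log axis, as reported (filled), with 1 array left out at a time (circles) and under other processing choices (triangles). Points of Gjb2, of Gjb6 and of Ocln in SJL against KS all lie left of the dashed line at 0.05, while those of Cldn4, of Cldn7 and of Ocln in SJL against B6 fall on both sides.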

How the data were processed

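Per the labels, RNA from pooled punches went through a DNase I step and a purification kit and was labelled with biotin for Affymetrix arrays. The authors deposited a table of probe set intensities on a linear scale, 9 arrays by 45101 probe sets, of which 64 were array controls. The sources used here do not give the summary, background and scaling steps. Upper quartiles of 379.6 to 396.3 show arrays on similar scales. Arrays of a strain correlated at 0.982 to 0.994 and arrays of other strains at 0.955 to 0.98. No depth applies to arrays, and their number, 3 per strain, limits the precision.

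Of the probe sets, 34945 had 1 gene symbol in the platform annotation, 932 several and 9160 none. RefSeq (GRCm38.p6) held 9 of the 9 genes described here and 18145 of 18193 symbols, and it was used for names, gene order and promoter sequences. The planned test allowed for log or linear values; since these are linear, log2(intensity + 10) was used, which understates changes of low genes. Dim probe sets, with a mean log2 value under the median of those that are not controls (an intensity of about 8.01), were left out, which left 22519 probe sets and 10956 genes. A model with 1 mean per strain (6 residual degrees of freedom) was fitted with limma 3.58.1 in R 4.3.3, two-sided, with Benjamini-Hochberg adjustment over the probe sets tested. The fit was tested on simulated data. With 3 against 3 arrays an exact permutation p is at least 0.1, so no such test was used. P-values set a difference between strains against the spread between mice within strains, pooled over the 3 strains and moderated by limma.

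The genes, lists and rule for named genes were chosen with earlier results of these data known. The rule named the 9 genes, up to 4 called genes of each other list per contrast or the 2 brightest where none was called, the 3 genes most like each called gene by Pearson correlation over the 9 arrays, chromosome neighbours that were tested, and Krt12, Kera and Slc4a11. Alternatives were the filter (none, or the 70th percentile), the scaling (quantile, or median-centred arrays), the pseudocount (1 or 50), a replicate block, a fit of the 6 arrays compared, a gene's probe sets averaged, and each array left out in turn.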

Additional observations from a re-analysis of the deposited data

How the results depend on the processing

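Of the 9 junction genes, 5 were called in SJL against KS, with 3 to 5 when 1 array was left out (3 without SJL replicate 1, KS replicate 1 or KS replicate 2). In KS against B6, 2 were called, 2 in every leave-out and 1 with a filter at the 70th percentile, where Gjb6 was not tested. In SJL against B6, 2 were called, 0 with no filter, and 1 to 3 with 1 array left out. The count was 1 without B6 replicate 2, SJL replicate 2 or SJL replicate 3, and 3 without KS replicate 3. With no filter more probe sets entered the adjustment. Without KS replicate 3 the added gene was Cldn1, whose difference stayed at -0.83. KS arrays enter that contrast only through the spread shared by the 3 strains. For the other arrays the cause was not tested. In a fit of the 6 arrays compared the count was again 2, with Cldn1 called (0.0111) and Ocln not (0.0632). Over all probe sets, 3489, 1286 and 3605 were called for SJL against KS, for KS against B6 and for SJL against B6, beside 2468, 838 and 2578 of 45037 with no filter, 2101, 742 and 2156 of 13511 at the 70th percentile, and 1765, 821 and 1915 of 10764 genes with the mean of all probe sets. In KS against B6, 748 were called without KS replicate 2 and 826 without KS replicate 3. The labels give mice with the same number no link but the number. Deviations of same-numbered arrays correlated at -0.266 to 0.263, and those of replicate 1 at 0.0699 to 0.263. Whether same-numbered arrays share a batch was not tested. With the replicate number as a block, 4, 2 and 3 of the 9 genes were called, losing Cldn7 in SJL against KS (0.0559) and adding Cldn1 in SJL against B6 (0.0462).

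Signs changed only in differences that were not called. With centring, Tjp1 in SJL against KS was 0.0095 and Gjb5 in SJL against B6 -0.0021. With the mean of all probe sets, Prkci in KS against B6 was 0.12 and Cryl1 in KS against B6 0.088. With 1 array left out, the ranges that crossed 0 in SJL against KS were -0.11 to 0.0084 for Gja1, -0.23 to 0.15 for Gjb5 and -0.063 to 0.083 for Tjp1. In KS against B6 they were -0.13 to 0.19 for Gjb5, -0.11 to 0.47 for Cldn4, -0.20 to 0.021 for Cldn23 and -0.20 to 0.060 for Cryl1. In SJL against B6 they were -0.034 to 0.094 for Gjb2, -0.18 to 0.20 for Gjb5, -0.041 to 0.23 for Gjb6, -0.088 to 0.37 for Panx1 and -0.055 to 0.28 for Cryl1.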
